A study of Mus musculus with 2 samples.

Results

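The NR4A nuclear receptors Nr4a1, Nr4a2 and Nr4a3 were followed across the cell classes of the mouse habenula. They are 3 of the 28692 genes in the count matrices, chosen by name, and all 3 were detected. Single cells were profiled by droplet RNA sequencing of tissue punched from habenula slices of male C57BL/6 mice aged 50 to 55 days, as 2 libraries of 1 group each, and each library pooled tissue of 4 mice. Mice of the foot shock group were given 30 shocks of 0.3 mA and 1 s, on average 116 s apart, over 60 min, and were processed directly after that session. These mice were also placed in the chamber for 10 min on each of 7 preceding days. Control mice came straight from the home cage, and both groups were handled for 5 min per day on 7 days. In both groups tissue was kept with tetrodotoxin, glutamate receptor blockers, actinomycin and anisomycin, which block firing, transcription and translation. The chamber visits and the shocks cannot be told apart in this design. With no replicates, no p-value compares the groups, and each interval is a 95% interval that covers counting error only.

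NR4A receptors are transcription factors whose activity depends mainly on how much of them a cell makes. They bind a short response element alone, and Nr4a1 and Nr4a2 also bind DNA as partners of the retinoid X receptors. All 3 genes are known as immediate early genes of stimulated neurons, induced through cyclic AMP and calcium signals. Nr4a2, also called Nurr1, is in addition a lasting identity factor, required for midbrain dopamine neurons.

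The libraries held 22189951 unique molecular identifiers (UMIs) in foot shock and 23095501 in control, and 4771 and 4880 cells were kept, foot shock first, with medians of 2698 and 2416.5 UMIs per cell. Of the cell barcodes kept, 32 occurred in both libraries, against 31.6 for independent draws. Lateral habenula (LHb)-like neurons numbered 864 in foot shock and 959 in control, and medial habenula (MHb)-like neurons 1617 and 1205. A class of 503 keratin-expressing cells was found in the foot shock library alone. Fibroblast-like cells of that library held 83 UMIs of Xist, a transcript of female cells, against 0 UMIs in control, although the mice were labelled male. Macrophage-like cells held 15 and 0 Xist UMIs, foot shock first, and free RNA held Xist at 35.5 CPM in foot shock and 15.3 CPM in control. In the neurons of that library Xist had 2 UMIs (LHb-like) and 0 UMIs (MHb-like). These cells form classes of their own, and the neuron values below do not include them. Doublet calling removed 1.43% of foot shock cells and 4.85% of control cells. Free RNA, measured in barcodes with 10 to 100 UMIs, held Nr4a2 at 262 CPM in foot shock and 184 CPM in control, Nr4a3 at 10.4 and 5.55 CPM, and Nr4a1 at 8.04 and 3.88 CPM, foot shock first. CPM are UMIs per 1000000 UMIs of the same class and library. The 3 members are not ranked by CPM, which is not scaled to length, and fewer cells with a transcript and less transcript per cell cannot be told apart in a class sum.

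The stretches upstream of the genes are shown because the 3 members share a feature there. They are RefSeq sequences on GRCm38.p6, written 5′ to 3′ on the strand of the gene, with each TGACG or its reverse complement CGTCA in capitals. TGACG is the half-site of the cyclic AMP response element, the DNA motif of CREB-family factors. Nr4a1 (ENSMUSG00000023034, chromosome 15, 101254269 to 101274795) lies on the plus strand, and chr15:101266596-101266845 is shown, which lies within the annotated gene but in none of its exons. Nr4a2 (ENSMUSG00000026826, chromosome 2, 57106830 to 57124003) lies on the minus strand, and chr2:57124004-57124253 is shown. Nr4a3 (ENSMUSG00000028341, chromosome 4, 48045153 to 48086447) lies on the plus strand, and chr4:48045055-48045152 is shown, the 98 bases of its window outside annotated exons. Gene positions are those of GENCODE vM21 on mm10, in which no other annotated gene overlaps these 3.
Nr4a1: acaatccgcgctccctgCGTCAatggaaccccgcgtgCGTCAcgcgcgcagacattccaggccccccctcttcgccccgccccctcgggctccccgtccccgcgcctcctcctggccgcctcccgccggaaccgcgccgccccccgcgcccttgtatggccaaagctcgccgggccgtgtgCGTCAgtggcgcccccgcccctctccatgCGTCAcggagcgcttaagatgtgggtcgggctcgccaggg
Nr4a2: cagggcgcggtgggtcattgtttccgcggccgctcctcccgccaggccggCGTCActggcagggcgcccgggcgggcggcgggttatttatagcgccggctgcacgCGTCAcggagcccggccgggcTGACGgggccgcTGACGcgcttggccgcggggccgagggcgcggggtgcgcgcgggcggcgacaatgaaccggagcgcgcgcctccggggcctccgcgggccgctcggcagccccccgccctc
Nr4a3: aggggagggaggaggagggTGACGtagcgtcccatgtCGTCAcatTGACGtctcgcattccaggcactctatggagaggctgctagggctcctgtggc

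Each member had 4 half-sites on either strand in the 250 bases before its RefSeq start, and for Nr4a3 3 of these fall in the stretch shown. Of 32817 promoter windows of the same length, 45 (0.137%) held 4 or more and 17.8% held at least 1. None of the 3 windows held the full palindrome TGACGTCA, found in 1.55% of all windows, or the NR4A response element AAAGGTCA, found in 1.34%. The windows are rich in G and C, at 74.4% for Nr4a1, 80.0% for Nr4a2 and 63.6% for Nr4a3. Among the other rapid activity-induced genes listed further on, 19 of 25 had at least 1 window. Of these genes 12 held at least 1 half-site, 7 held at least 2 (Fos, Egr2, Egr4, Npas4, Btg2, Dusp1 and Maff) and 0 held 4. For each the window with the most half-sites was taken, so these counts are not comparable with the shares of single windows. These matches describe letters in a window and not binding.

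Nr4a2 was a gene of habenula neurons, and most of all of medial ones, in both libraries. In MHb-like neurons it was at 940 CPM in foot shock (exact Poisson interval 915 to 966) and 843 CPM in control (818 to 869). In LHb-like neurons it was at 430 CPM in foot shock (408 to 453) and 292 CPM in control (276 to 309). Medial over lateral, the ratio was 2.19 in foot shock (exact conditional binomial interval 2.06 to 2.32) and 2.88 in control (2.71 to 3.08). Both classes stood above free RNA in either library. Most neurons without a habenula name were lower. Thalamus-like neurons, which carry the thalamic genes C1ql3, Ramp3 and Gbx2, had 22.6 CPM in foot shock and 10.3 CPM in control, from 6 and 8 UMIs. Other neurons, below the required level of the habenula factor Pou4f1, had 87.4 CPM in foot shock and 57.1 CPM in control, a ratio of 1.53 (1.07 to 2.18) where 5.42% of 9237 measured genes were higher by at least 1.5 times. That ratio was 1.45 with a mitochondrial share of at most 10% and 1.32 with called doublets kept. The small class of GABAergic-like neurons, of 27 cells in foot shock and 21 in control, had 90.9 CPM in foot shock (36.5 to 187) and 208 CPM in control (123.5 to 329), which in control overlapped with LHb-like neurons. Oligodendrocyte-like cells had 32.1 and 22.0 CPM and astrocyte-like cells 42.7 and 38.5 CPM, foot shock first. In foot shock, oligodendrocyte precursor-like (330 CPM, 253 to 422), microglia-like (301, 213 to 414) and endothelial-like cells (308, 213 to 430) overlapped with LHb-like neurons. In control they did not, and their neuron-marker content is given further on.

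Counted by cell, Nr4a2 was found in most medial neurons. Without thinning it was seen in 89.1% of MHb-like neurons in foot shock and 87.1% in control, at median depths of 3473 and 4229 UMIs. It was seen in 57.8% of LHb-like neurons in foot shock and 45.5% in control, at median depths of 3622 and 4341 UMIs. With every cell thinned to 1000 UMIs, the shares were 58.6% of foot shock (exact Clopper-Pearson interval 56.2 to 61.0%) and 52.8% of control MHb-like neurons (49.97 to 55.7%). For LHb-like neurons they were 29.1% in foot shock (26.1 to 32.3%) and 19.4% in control (16.9 to 22.0%). Oligodendrocyte-like cells, a class that should lack the gene, showed Nr4a2 in 3.28% of thinned cells in foot shock (2.17 to 4.73%) and 2.15% in control (1.37 to 3.20%), at median depths of 1845 and 2067 UMIs. At least 5 UMIs of Nr4a2 were found in 437 of 1617 MHb-like neurons in foot shock and 400 of 1205 in control, and in 90 of 864 and 83 of 959 LHb-like neurons.

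The medial level was close to uniform across subclusters, with 1 exception. MHb-like neurons formed 8 subclusters, called here by their leading genes, and the NR4A genes were kept out of the clustering. In 7 of them Nr4a2 was between 985 and 1089 CPM in foot shock and between 863 and 976 CPM in control, with neighbours in the order overlapping in both libraries. The exception was the subcluster led by Cck, 6330403A02Rik and Adcyap1, which carries the neuropeptides cholecystokinin and PACAP. There Nr4a2 was at 355 CPM in foot shock (312 to 402) and 267 CPM in control (228 to 311). Against the rest of the MHb-like neurons, that is 0.347 times the level in foot shock (0.304 to 0.395) and 0.290 times in control (0.246 to 0.339). The Cck-led cells kept the habenula factor Pou4f1, at 700.1 CPM in foot shock and 892 CPM in control, against 583 and 718 CPM in the whole class.

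**Figure D1:**
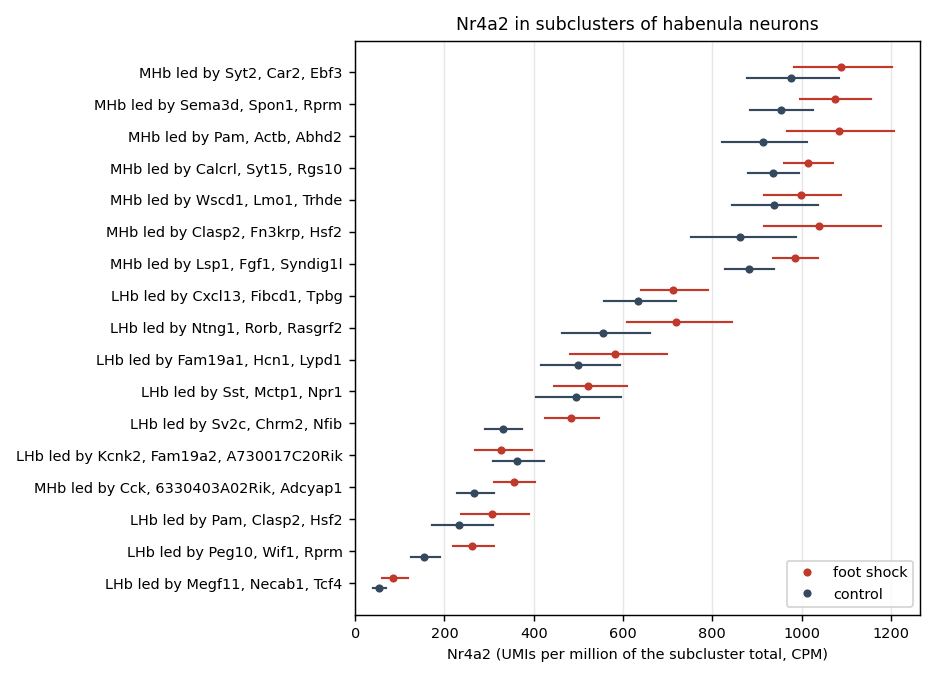
Nr4a2 level in CPM of the subcluster total (horizontal axis) in each of 17 subclusters of medial (MHb) and lateral (LHb) habenula neurons, ordered by the mean of both libraries. Points are the foot shock (red) and control (dark) libraries and lines exact Poisson 95% intervals; 7 medial subclusters lie at 863 CPM or more, and the Cck-led one at 355 CPM in foot shock and 267 CPM in control.

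Lateral neurons were graded. The LHb-like subclusters led by Cxcl13, Fibcd1 and Tpbg and by Ntng1, Rorb and Rasgrf2 were the highest of 9. The Cxcl13-led cells had Nr4a2 at 711 CPM in foot shock (639 to 789) and 634 CPM in control (558 to 718), and the Ntng1-led cells had 720 CPM in foot shock and 555 CPM in control, and these 2 overlapped in both libraries. The Fam19a1-led cells had 583 CPM in foot shock and 499 CPM in control. The Sst-led cells, which carry somatostatin, had 523 and 494 CPM, foot shock first. In the middle stood the cells led by Sv2c and the muscarinic receptor gene Chrm2, at 483 CPM in foot shock and 331 CPM in control, and the cells led by Kcnk2, at 328 and 363 CPM. The cells led by Pam, Clasp2 and Hsf2 had 307 CPM in foot shock and 233 CPM in control. These 3 genes were also among the leading genes of medial subclusters. Median depth was 2040 UMIs per cell in these lateral cells and 2172 and 2668 in those medial ones, the lowest of their classes. The cells led by the imprinted gene Peg10 had 262 CPM in foot shock and 155 CPM in control. The lowest level, 85.3 CPM in foot shock (59.8 to 118) and 53.2 CPM in control (40.4 to 68.8), was in the subcluster led by Megf11, Necab1 and Tcf4, whose Pou4f1, at 1.19 counts per 10000, was close to the 1 that a habenula name required. With finer clustering (resolution 2.0), a group led by Megf11, Gad2 and Necab1 had Pou4f1 at 0.904 and lost the habenula name. That group held 69 foot shock and 122 control cells. The values here keep all Megf11-led cells in the LHb-like class. Megf11-led cells were below free RNA in both libraries, and Peg10-led cells were below it in control. Every one of the 7 high medial subclusters was above every lateral one. The Cck-led medial cells overlapped with the Kcnk2-led and Pam-led lateral cells.

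After foot shock, Nr4a2 was higher in both habenula classes, by a modest factor. Of the 3 members, 0 were past a ratio of 1.5 in either class, where 3.63% of 11658 genes with at least 20 UMIs in LHb-like neurons and 3.09% of 11757 in MHb-like neurons were higher by as much. The LHb-like Nr4a2 ratio lay near that limit and passed it, at 1.52, 1.56 and 1.51, with median ratio scaling, as a mean over cells and without the 10 highest cells. In MHb-like neurons the ratio of foot shock over control was 1.12 (1.07 to 1.16), and in LHb-like neurons it was 1.47 (1.36 to 1.59). All 8 medial subclusters had a ratio above 1, from 1.07 to 1.33, and 4 had an interval above 1. Of the 9 lateral subclusters 8 had a ratio above 1 and 4 an interval above 1. Peg10-led cells had 1.69 (1.28 to 2.23), Megf11-led cells 1.60 (1.03 to 2.47), Sv2c-led cells 1.46 (1.22 to 1.75) and Ntng1-led cells 1.30 (1.02 to 1.66), while Kcnk2-led cells had 0.903 (0.6999 to 1.16). None of the 17 had an interval below 1. Megf11-led cells were below free RNA in both libraries. Peg10-led cells were level with free RNA in foot shock, at 262 CPM, and below it in control, at 155 against 184 CPM.

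Part of the lateral ratio moved with the mix of subclusters. The Megf11-led cells, lowest in Nr4a2, numbered 124 in foot shock and 275 in control. With the same mix of subclusters in both libraries the LHb-like ratio was 1.24, and without the Megf11-led cells it was 1.28 (1.18 to 1.39), while the same mix gave 1.12 in MHb-like neurons. Nr4a2 in free RNA was also higher in foot shock, as given above, and with 5% of each class total subtracted as free RNA the ratios were 1.47 in LHb-like and 1.11 in MHb-like neurons.

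**Figure D2:**
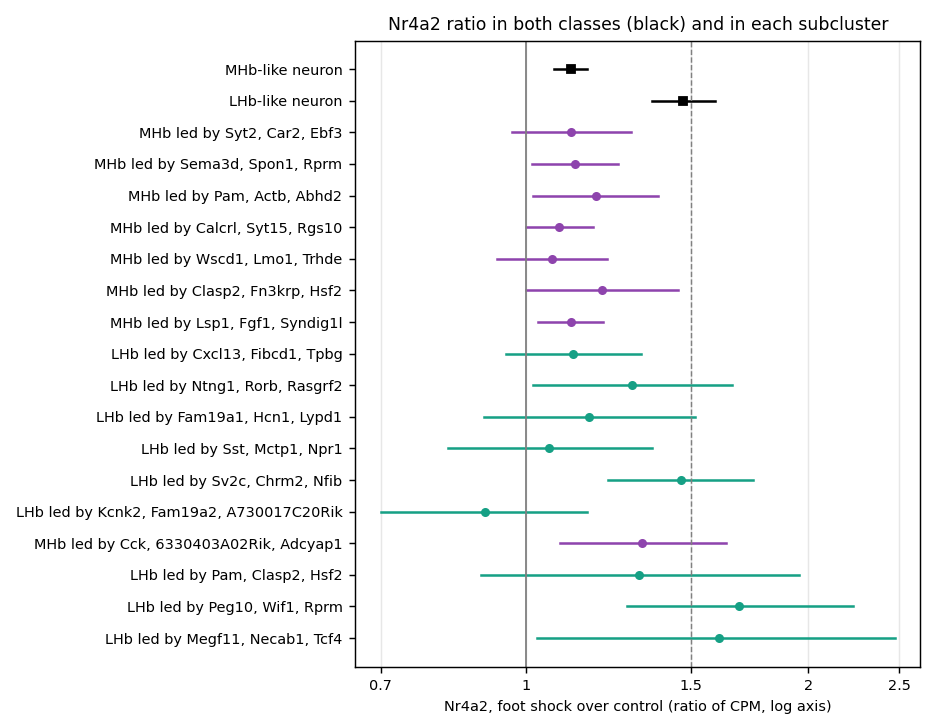
Ratio of Nr4a2 CPM, foot shock over control (horizontal log axis), in both habenula classes (black squares) and in the 17 subclusters (purple medial, green lateral), with exact conditional binomial 95% intervals; the solid line marks 1 and the dashed line 1.5. The class ratio of LHb-like neurons is 1.47, and its subclusters run from 0.903 to 1.69.

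Nr4a3 was concentrated in few kinds of neurons. The highest subcluster was the Sst-led lateral one, with Nr4a3 at 125 CPM in foot shock (88.9 to 171) and 105 CPM in control (66.7 to 158), from 39 and 23 UMIs. That is 6.95 times the rest of the LHb-like neurons in foot shock (4.47 to 10.7) and 4.97 times in control (2.99 to 7.97). Next came the Cck-led medial cells, at 70.7 CPM in foot shock (52.3 to 93.5) and 95.6 CPM in control (72.6 to 124). They held 49 of the 108 Nr4a3 UMIs of foot shock MHb-like neurons and 58 of the 93 of control ones, and stood 5.90 times above the rest of the class in foot shock (3.95 to 8.76) and 12.03 times in control (7.78 to 18.9). The Sst-led and Cck-led cells overlapped in both libraries. Peg10-led lateral cells had 40.0 CPM in foot shock (24.4 to 61.7) and 58.6 CPM in control (40.6 to 82.0). The Cck-led cells were thus the lowest medial subcluster for Nr4a2 and the highest for Nr4a3. The other 7 medial subclusters had Nr4a3 at 19.0 CPM or less in foot shock and 10.8 CPM or less in control.

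Over whole habenula classes, Nr4a3 differed little between the libraries. LHb-like neurons had 28.4 CPM in foot shock and 25.5 CPM in control, a ratio of 1.11 (0.832 to 1.49), and MHb-like neurons had 19.3 and 18.6 CPM, foot shock first, a ratio of 1.04 (0.779 to 1.38). Both intervals hold 1, so a difference within them was not detectable at this depth. Of the 17 subclusters 1 had an interval above 1, the medial cells led by Calcrl, Syt15 and Rgs10, at 19.0 CPM in foot shock and 7.198 CPM in control from 25 and 8 UMIs (2.64, 1.15 to 6.77). In Thalamus-like neurons Nr4a3 had 8 UMIs in foot shock and 5 in control (4.71, 1.36 to 18.3). In most glia it was barely detected. Astrocyte-like cells had 0 UMIs in both libraries, which at 3 UMIs of the class total allows up to 16.02 CPM in foot shock and 4.12 CPM in control, and oligodendrocyte-like cells had 1.19 and 1.27 CPM, foot shock first. Ependymal-like cells, which line the ventricle, were an exception, at 43.6 CPM in foot shock (18.8 to 85.9) from 8 UMIs in 38 cells and 46.9 CPM in control (5.68 to 169) from 2 UMIs in 15 cells.

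**Figure D3:**
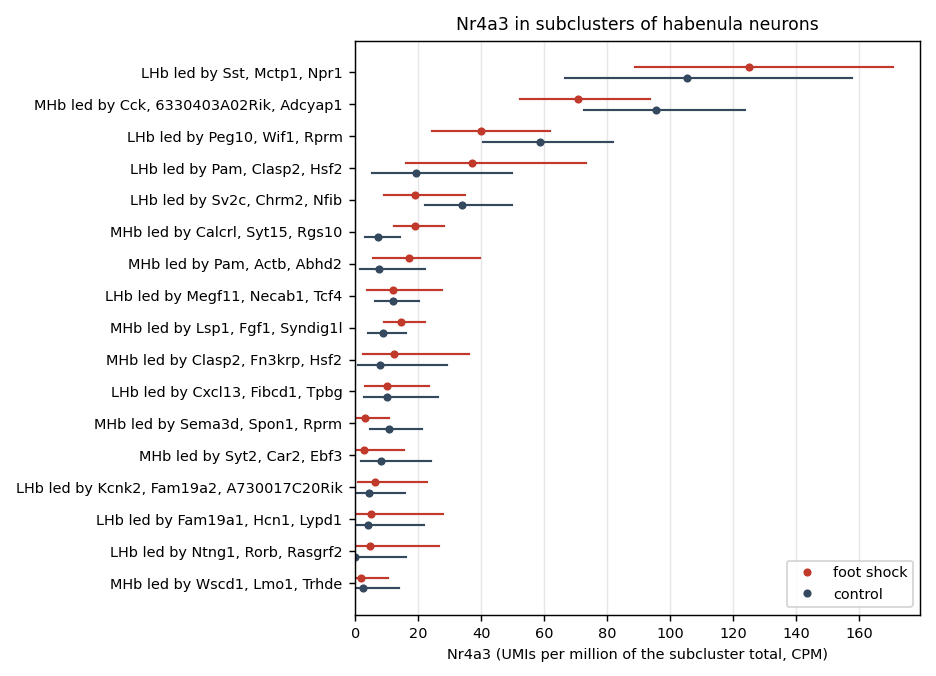
Nr4a3 level in CPM of the subcluster total (horizontal axis) in the 17 subclusters of habenula neurons, ordered by the mean of both libraries. Points are the foot shock (red) and control (dark) libraries and lines exact Poisson 95% intervals; the Sst-led lateral cells stand highest, at 125 CPM in foot shock and 105 CPM in control, and the Cck-led medial cells follow.

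Nr4a1, the member best known as an immediate early gene, was low in habenula neurons and higher in cells of the vessel wall and the oligodendrocyte lineage. In LHb-like neurons it had 12 UMIs in each library, 3.75 CPM in foot shock (1.94 to 6.55) and 2.86 CPM in control (1.48 to 5.00), a ratio of 1.31 (0.538 to 3.19). In MHb-like neurons it had 7.49 CPM in foot shock and 6.38 CPM in control (1.17, 0.723 to 1.92). These levels were below free RNA except in control MHb-like neurons. Within foot shock LHb-like neurons, 6 of the 12 UMIs were in Cxcl13-led cells, 1 in each of 6 cells of 104, against 0 of 68 cells in control. Of these 6 cells 4 also held Fos and 5 held Egr1, both activity-induced factors, and Fos was found in 14 of the 104 foot shock cells and 1 of the 68 control cells. This subcluster was singled out after its values were seen.

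Among glia and vessel cells, Nr4a1 was found in mural-like cells, which wrap the vessels, at 73.1 CPM in foot shock (26.8 to 159) and 160 CPM in control (85.4 to 274), from 6 and 13 UMIs. Endothelial-like cells had 54.3 CPM in foot shock (19.9 to 118) and 134 CPM in control (82.9 to 205), from 46 and 64 cells, the first of which is under the 50 cells a class needed for fold calls. Of the mural-like cells with Nr4a1, 4 of 5 in foot shock and 13 of 13 in control also held Fos, and of the endothelial-like cells 2 of 4 in foot shock and 10 of 12 in control. Fos itself was found in 28 of 61 foot shock and 48 of 54 control mural-like cells. Among the other rapid activity-induced genes, 8 of 8 measured members were lower by at least 1.5 times in foot shock mural-like cells, where 21.8% of 1010 genes were; their part in the Nr4a1 values was not tested. Oligodendrocyte precursor-like cells had Nr4a1 at 94.2 CPM in foot shock (55.8 to 149) and 57.4 CPM in control (34.5 to 89.6), a ratio of 1.64 (0.813 to 3.31), which was 0.968 with cells of at least 2000 UMIs alone. Oligodendrocyte-like cells had 19.0 CPM in foot shock (13.02 to 26.9) and 11.0 CPM in control (7.18 to 16.1), a ratio of 1.73 with an interval from 1.00 to 3.03, and 5.40% of 9115 genes were higher by 1.5 times there. With cells of at least 2000 UMIs alone that ratio was 0.978. Microglia-like cells had 0 Nr4a1 UMIs in both libraries, which allows up to 23.8 CPM in foot shock and 16.7 CPM in control.

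**Figure D4:**
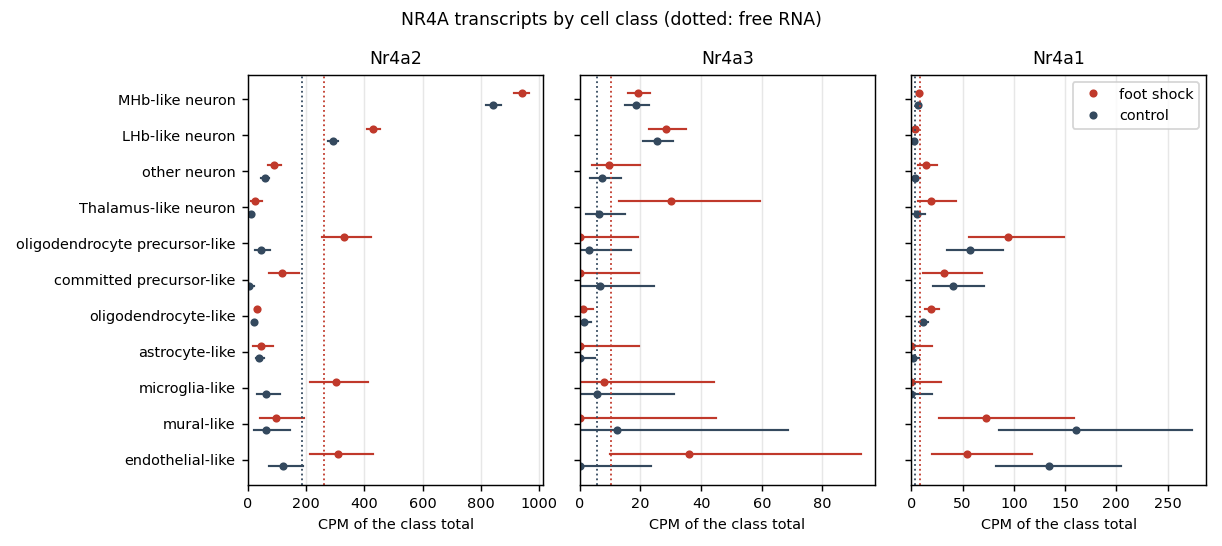
Levels of Nr4a2, Nr4a3 and Nr4a1 in CPM of the class total (horizontal axes, each with its own scale) in 11 cell classes, as foot shock (red) and control (dark) points with exact Poisson 95% intervals; dotted lines give free RNA. Nr4a2 stands highest in MHb-like neurons, at 940 CPM in foot shock and 843 CPM in control, and Nr4a1 in mural-like, endothelial-like and oligodendrocyte precursor-like cells.

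The members followed different patterns across cells. Over 25 points, the 17 habenula subclusters and 8 other classes with both libraries as 1 level, Pearson r of log2(CPM + 10) was -0.34 between Nr4a1 and Nr4a2, -0.30 between Nr4a1 and Nr4a3 and 0.17 between Nr4a2 and Nr4a3. The points share libraries and free RNA, so r is a description. Among 7922 genes with at least 500 UMIs, those most like Nr4a2 were the semaphorin receptor Nrp2 (r 0.94), Scube1 (0.89), the homeobox gene Irx2 (0.89), Pou4f1 (0.88), which was used to name habenula cells, and Mllt6 (0.87). Nrp2 was at 636 CPM in foot shock and 627 CPM in control MHb-like neurons, and at 248 and 229 CPM in LHb-like neurons, foot shock first. Most like Nr4a3 were Adcyap1, which encodes PACAP (0.79), the co-receptor gene Rgmb (0.71), Ndst4 (0.71), the Wnt agonist Rspo3 (0.70) and Trmt112 (0.69). Adcyap1 was at 279 CPM in foot shock and 285 CPM in control Cck-led cells, and at 148 CPM in foot shock and 151 CPM in control Sst-led cells. Most like Nr4a1 were the actin-binding gene Cald1 (0.89), Epn2 (0.87), Lims2 (0.83), Afap1 (0.82) and Zfp639 (0.81).

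Within the Cck-led cells Nr4a2 and Nr4a3 showed no common direction cell by cell. Nr4a2 was seen in 51.2% of the 41 cells with Nr4a3 and 61.4% of the others in foot shock, and in 62.5% of 48 and 50.5% of the others in control. In Sst-led cells it was seen in 13 of the 26 cells with Nr4a3 and 65.2% of the others in foot shock, and in 47.1% of 17 and 60.6% of the others in control.

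In several glial classes Nr4a2 was far higher in foot shock, from few UMIs in few cells. Oligodendrocyte precursor-like cells had 330 CPM in foot shock and 45.3 CPM in control (7.28, 4.10 to 13.8), where 15.1% of 5135 genes were higher by 1.5 times. Microglia-like cells had 301 CPM in foot shock and 61.1 CPM in control (4.93, 2.47 to 10.7), where 21.3% of 2171 genes were. Committed precursor-like cells had 116 CPM in foot shock and 3.38 CPM in control from 22 UMIs and 1 UMI (34.3, 5.55 to 1417), where 12.9% of 4116 genes were. All measured members were past the fold in these 3 classes, Nr4a2 in each and Nr4a1 in precursor-like cells. The 63 UMIs of foot shock precursor-like cells lay in 16 of 108 cells, with up to 14 in a cell, and the 15 UMIs of control ones in 6 of 245. Oligodendrocyte-like and astrocyte-like cells had ratios of 1.46 (0.980 to 2.18) and 1.11 (0.437 to 2.50), where 5.40% and 12.7% of genes were higher by 1.5 times. With all cells of at least 500 UMIs the astrocyte-like ratio was 1.797 (1.16 to 2.78).

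Neuron markers moved with Nr4a2 in these glia. Summed over 16 habenula neuron markers, precursor-like cells held 2413 CPM in foot shock and 1317 CPM in control, microglia-like cells 1792 and 539 CPM and committed precursor-like cells 1328 and 530 CPM, foot shock first. Of the 16, 12, 14 and 14 were higher in foot shock in these classes, in that order, and the markers at 0 were Pvalb in foot shock precursor-like cells, Tac1 in microglia-like cells of both libraries, Pvalb and Vgf in foot shock and Chrna3 and Vgf in control committed precursor-like cells. Free RNA held 4502 CPM of them in foot shock and 3858 CPM in control. Over 23 habenula and general neuron markers, cells with at least 10 UMIs made up 11.1% of foot shock and 2.45% of control precursor-like cells, and 14.3% of foot shock and 2.61% of control microglia-like cells. These cells held 58 of the 63 and 11 of the 15 Nr4a2 UMIs of precursor-like cells, and 36 of the 38 and 7 of the 11 of microglia-like cells, foot shock first. Without them the ratio was 3.00 from 5 and 4 UMIs (0.645 to 15.1) in precursor-like and 0.997 from 2 and 4 UMIs (0.0902 to 6.96) in microglia-like cells. In committed precursor-like cells they held 15 of the 22 foot shock UMIs, and without them the ratio was 13.7 from 7 UMIs and 1 UMI (1.77 to 619). With called doublets kept, the precursor-like ratio was 2.43 (1.68 to 3.51). In endothelial-like cells, with 308 CPM in foot shock and 121 CPM in control, cells with neuron markers held 27 of 34 and 8 of 19 Nr4a2 UMIs. Beyond these values, the part of neuron markers in the glial ratios was not tested.

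**Figure D5:**
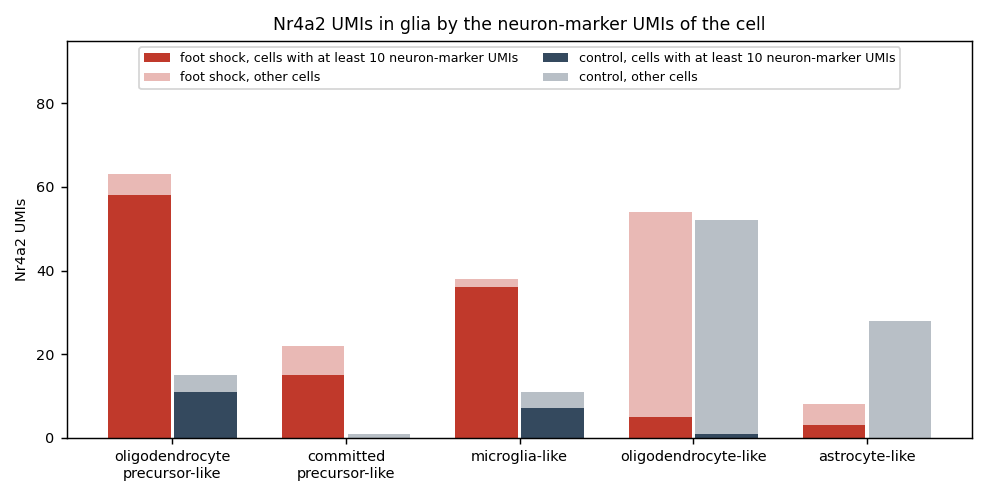
Nr4a2 UMIs (vertical axis) in 5 glial classes of the foot shock (red, left bar) and control (dark, right bar) libraries, split into cells with at least 10 UMIs of 23 neuron markers (full colour) and other cells (pale). In precursor-like cells 58 of 63 foot shock UMIs and 11 of 15 control UMIs lie in cells with neuron markers, while in oligodendrocyte-like cells 5 of 54 and 1 of 52 do.

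Genes that work with the NR4A receptors were mostly level between the libraries. The retinoid X receptors are dimer partners of Nr4a1 and Nr4a2. Rxrb was at 35.3 CPM in foot shock and 33.2 CPM in control LHb-like neurons, and 0 of 3 measured partners in LHb-like and 0 of 2 in MHb-like neurons were past 1.5 times in either direction. Of 9 corepressors and coactivators, among them the corepressor gene Ncor1 at 175 CPM in foot shock and 190 CPM in control LHb-like neurons, 1 was lower and 0 were higher in LHb-like neurons, where 5.69% of all measured genes were lower. The lower one was the coactivator gene Ncoa3, at 21.2 CPM in foot shock and 33.9 CPM in control (0.627, 0.462 to 0.842), and in MHb-like neurons, where 4.62% of genes were lower, 0 of 9 were past 1.5 times either way. The factors that induce NR4A genes, CREB and its coactivators, MEF2 factors, Srf and their kinases, had 13 measured members of 14 in each class and 0 past 1.5 times. The protein kinase A subunit gene Prkaca was at 274 CPM in foot shock and 288 CPM in control LHb-like neurons. Their median log2 ratio was -0.12 in LHb-like and -0.09 in MHb-like neurons, beside -0.05 and -0.04 over all measured genes.

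Several other rapid activity-induced genes had larger ratios than the NR4A genes, as point values. Of 25, 15 were measured in LHb-like neurons, 5 were higher by 1.5 times and 1 was lower, where 3.63% and 5.69% of all measured genes were, and the median log2 ratio was 0.21. Of 17 measured in MHb-like neurons 6 were higher and 0 lower, where 3.09% and 4.62% of all measured genes were, and the median was 0.38. Among genes with at least 100 UMIs, 3 of 7 in LHb-like and 5 of 10 in MHb-like neurons were higher, where 1.17% and 0.894% of all genes were. In LHb-like neurons Fos had a ratio of 3.68 (2.43 to 5.70), Egr1 2.79 (2.04 to 3.86), Klf10 3.05 (1.34 to 7.57) and Jun 2.05 (1.59 to 2.66). In MHb-like neurons Egr1 had 3.21 (2.08 to 5.12), Fos 1.96 (1.44 to 2.68), Jun 1.70 (1.21 to 2.42), the salt-inducible kinase gene Sik1 1.61 (1.34 to 1.95) and Arc 1.61 (1.18 to 2.21). The Nr4a1 interval in LHb-like neurons (0.538 to 3.19) overlapped every interval given here for that class. In MHb-like neurons (0.723 to 1.92) it overlapped all but that of Egr1. A smaller Nr4a1 ratio was thus not shown for those genes. Nr4a2 and Nr4a3 also overlapped Klf10 in LHb-like neurons, and Nr4a3 overlapped Jun, Sik1 and Arc in MHb-like neurons. Free RNA held Fos at 72.8 CPM in foot shock and 15.5 CPM in control, above its level in either neuron class. In foot shock, free RNA also held Egr1 at 23.1, Jun at 47.4 and Sik1 at 60.4 CPM, above their MHb-like levels of 17.3, 18.0 and 57.2 CPM, and its control levels of these genes were 7.76, 25.8 and 29.1 CPM. The part of free RNA in these ratios was not tested.

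Genes through which Nr4a2 and its partners specify dopamine neurons were mostly under 20 UMIs in habenula neurons. Of 15 dopaminergic partners and targets, 4 were measured in LHb-like and 3 in MHb-like neurons. Ret, a receptor for neurotrophic factors, was at 109 CPM in foot shock and 90.7 CPM in control LHb-like neurons (1.202, 1.04 to 1.39) and at 16.9 and 17.6 CPM in MHb-like neurons, foot shock first. Th, which encodes the first enzyme of dopamine synthesis, was at 15.5 CPM in foot shock and 16.6 CPM in control MHb-like neurons and at 4.06 and 2.86 CPM in LHb-like neurons. Ddc, also measured in both classes, was at 45.3 CPM in foot shock and 53.7 CPM in control LHb-like neurons (0.843, 0.680 to 1.04). In MHb-like neurons Ddc was at 4.10 and 2.99 CPM, foot shock first. Slc6a3, the dopamine transporter gene, had 12 UMIs in foot shock and 32 in control LHb-like neurons (0.491, 0.230 to 0.979), the 1 of 4 measured members past 1.5 times, where 5.69% of all measured genes were lower. Of 6 metabolic genes known to respond to NR4A receptors in other tissues, 2 were measured in each class and 0 were past 1.5 times. The coactivator gene Ppargc1a was at 175 CPM in foot shock and 196 CPM in control LHb-like neurons, and at 22.1 and 18.6 CPM in MHb-like neurons.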

How the data were processed

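The authors deposited unnormalised UMI counts for each gene and barcode, made with Cell Ranger 2 on mm10, per the submitters' processing notes. No source used here names the annotation release, and 28339 of 28692 gene identifiers occur in GENCODE vM21. All 737280 barcodes were listed, so cells were called here.

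Cells had at least 1000 UMIs, 500 to 6000 genes and at most 20% mitochondrial UMIs; 188 foot shock and 63 control barcodes over that limit were left out. Scrublet in scanpy 1.11.5 removed doublets per library at an expected rate of 0.08. Both libraries were clustered together (2000 variable genes, 30 components, 15 neighbours, Leiden resolution 1.0) without the NR4A genes and the gene lists. A cluster was named from at least 3 markers, each present in 10% or more of the cells. That share of cells also had to reach 33.3% of the marker's highest share in any cluster. Habenula names also needed Pou4f1 at 1 count per 10000. Each habenula subcluster was checked again only for GABAergic markers, astrocyte markers and the Pou4f1 level, and otherwise kept its class name. This step was added after the data were seen. Clusters with markers of 2 unrelated classes, 83 foot shock and 16 control cells, were left out.

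UMIs were summed per class and library and scaled to the class total. A gene was measured in a class if both libraries together held at least 20 UMIs. It was past the fold at a ratio of at least 1.5 or the inverse. Median log2 ratios of lists and of all measured genes used a prior count of 0.5, while ratios of single list members used none. Intervals are 95% exact Poisson, conditional binomial and Clopper-Pearson ones (scipy 1.17.1). UMIs of 1 cell are not independent, so intervals are too narrow. Thinned shares are means over all draws of 1000 UMIs. CPM is not scaled to gene length, so the members were not ranked against each other; the list members named for their high CPM are examples.

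The text names the 3 members, list members past the fold with an interval without 1 or highest in their list, the 5 genes most like each member and up to 3 leading genes per subcluster; other list members are named after their values were seen. The members and lists were chosen with earlier results of these data known.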

Additional observations from a re-analysis of the deposited data

Results flagged for a closer look

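The keratin-expressing cells occurred in the foot shock library alone and enter no comparison. Their 503 cells held 31 UMIs of Nr4a1 (25.1 CPM, 17.1 to 35.7) and 11 UMIs of Nr4a2 (8.92 CPM, 4.45 to 15.96), both above the 3 UMIs that a count of 0 allows. Nr4a2 in these cells was below its free RNA level of that library, 262 CPM, and Nr4a1 above its own, 8.04 CPM.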

How the results depend on the processing

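No paired analysis was possible because there is 1 library per group, and no replicate could be left out. For the main results, 177 alternative values lay within the interval of the reported value, or within 1.5 times of a count, and 35 lay outside. A further 2, where a ratio with an interval above 1 turned below 1, are among those below. The LHb-like Nr4a2 ratio of 1.47 was 1.24 with a standard subcluster mix and 1.28 without the subcluster lowest in Pou4f1; its other alternatives gave 1.45 to 1.56, and the MHb-like ratio 1.09 to 1.16. The precursor-like Nr4a2 ratio of 7.28 was 2.38 at 2000 UMIs per cell, 2.43 with doublets kept and 3.00 without cells with neuron markers, and the microglia-like ratio of 4.93 was 0.997 without them. The astrocyte-like Nr4a2 ratio of 1.11 was 1.797 at 500 UMIs per cell, 0.794 at a mitochondrial share of 10%, 0.994 with doublets kept, 0.756 without cells with neuron markers and 0 without the 10 highest cells, which removes all 8 foot shock UMIs. The LHb-like Nr4a3 ratio of 1.11 was 0.916 with a standard mix, the precursor-like Nr4a1 ratio was 0.968 at 2000 UMIs per cell, and the oligodendrocyte-like Nr4a1 ratio was 0.978 at 2000 UMIs per cell; the cause was not tested. Medial over lateral Nr4a2 was 2.44 in foot shock and 3.28 in control as a mean over cells, 2.51 and 3.33 with names per cluster only, and 1.95 and 2.24 without the subcluster lowest in Pou4f1. Without the 10 highest cells on each side, the Cck-led Nr4a2 level was 0.238 times the rest in control, and the Sst-led Nr4a3 level 4.41 times in foot shock and 2.65 times in control. At resolution 0.5 and 2.0, 4 of 5 and 11 of 12 medial subclusters stood above every lateral one, against 7 of 8. Unthinned Nr4a2 shares were 57.8% in foot shock and 45.5% in control LHb-like neurons and 89.1% and 87.1% in MHb-like neurons; thinned to 2000 UMIs, 49.8% and 36.9%, and 80.5% and 77.5%. With at least 100 UMIs, 3 of 7 rapid genes were higher in LHb-like neurons. Of the 5 genes most like Nr4a2, Nr4a1 and Nr4a3, 1, 1 and 0 were among the 5 by Spearman rho, 3, 3 and 3 in the foot shock library alone and 2, 2 and 1 in the control library alone. Median ratio scaling was run for ratios only, and leaving out the 10 highest cells gave no Nr4a2 ratio for 3 glial classes whose control then held 0 UMIs. Names per cluster only, the left-out subcluster, the neuron-marker limit and the left-out cells in subcluster contrasts were chosen after seeing the data.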
